A study of Mus musculus with 12 samples.

Results

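The CpG methylation of 10 imprinted loci was examined in whole retina of C57 BL/6J mice at postnatal day 21 (P21), with and without the TET enzymes. The members were H19, Igf2r, Kcnq1ot1, Peg3, Snrpn, Peg10, Mest, Plagl1, Grb10 and Meg3, 10 of the 32093 protein-coding and long noncoding genes of GENCODE M21 on the mm10 build. A listed region belonged to a member if it overlapped the gene with 5 kb on each side. This took in 89 of the 193836 regions listed from whole-genome bisulfite sequencing (WGBS) and 238 of the 592906 listed from bisulfite-assisted APOBEC-coupled sequencing (bACE-seq). WGBS reads 5-methylcytosine (5mC) and 5-hydroxymethylcytosine (5hmC) together, whereas bACE-seq reads 5hmC alone. The paper estimated that a small share of unmodified cytosines escaped conversion in bACE-seq, similar in size to the lowest Cre- levels given below. Low 5hmC levels may therefore include this background.

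Control retinas, labelled Cre- and WT, lacked a Cre transgene. Tet tcKO retinas carried the Chx10-Cre-GFP transgene, which acts in retinal progenitor cells, with floxed alleles of Tet1, Tet2 and Tet3. The transgene is mosaic, and Cre-positive animals were in-crossed to give more copies of it. Each group held 3 libraries per assay, 12 in all, and per the methods each DNA sample came from retinas pooled from 2 animals. The lists hold 1 mean level per group and region, so the spread among libraries and the read depth are unknown, and no test of a single region could be made here. A position outside the lists may still have differed between the groups. In these bulk samples a change within cells and a change in the mix of cells cannot be told apart.

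Imprinted genes are expressed from a single parental allele. Their choice of allele is set by control regions, CpG-rich stretches that receive 5mC in only the egg or the sperm and keep it afterwards through the wave of demethylation in the early embryo, with the help of the zinc finger protein ZFP57. In a sample of whole cells such a region reads near the midpoint between empty and full methylation, because the alleles differ. The TET enzymes oxidise 5mC to 5hmC, a step towards its removal. The WGBS and bACE-seq levels below are means over both alleles.

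Methylation fell at CpG islands of 4 loci, while most other listed regions gained it. Of the 89 WGBS regions, 84 had a higher level in Tet tcKO and 5, or 5.62%, a lower one, beside 1.38% of all listed WGBS regions. The 5 lower regions lay at the start of Kcnq1ot1, at the start of Plagl1, at the shared start of Peg10 and Sgce, and at 2 positions upstream of the main start of Mest. Every one of them overlapped a CpG island, beside 1310 of all 2672 listed WGBS regions of lower level. All 66 member regions off islands had a higher level in Tet tcKO, as did 99.2% of all listed WGBS regions off islands. All 238 bACE-seq regions had less 5hmC in Tet tcKO, as did 99.96% of all listed bACE-seq regions.

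The DNA of the regions that the results turn on is printed here from the mm10 sequence, with each CpG in capitals and any annotated UTR left out. The first 4 come from regions of lower level in Tet tcKO. They are the island of the Kcnq1ot1 start (chr7:143295560-143295859, minus strand), the DNA just upstream of the Plagl1 start (chr10:13090634-13090787, plus strand), the DNA between the Sgce and Peg10 starts (chr6:4747208-4747280, plus strand) and the island upstream of Mest (chr6:30735272-30735571, plus strand).
Kcnq1ot1: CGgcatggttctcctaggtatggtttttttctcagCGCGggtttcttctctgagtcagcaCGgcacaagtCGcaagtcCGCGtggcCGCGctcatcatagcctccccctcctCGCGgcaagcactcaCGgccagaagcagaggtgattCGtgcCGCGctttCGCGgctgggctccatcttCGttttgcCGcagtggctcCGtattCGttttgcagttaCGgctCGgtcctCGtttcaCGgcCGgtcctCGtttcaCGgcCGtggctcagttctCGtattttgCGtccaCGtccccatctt
Plagl1: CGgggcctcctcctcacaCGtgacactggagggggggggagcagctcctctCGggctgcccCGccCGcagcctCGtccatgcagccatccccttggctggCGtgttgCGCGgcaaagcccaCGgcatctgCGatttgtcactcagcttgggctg
Peg10: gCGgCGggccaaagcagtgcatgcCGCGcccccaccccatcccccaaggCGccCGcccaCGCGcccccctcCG
Mest: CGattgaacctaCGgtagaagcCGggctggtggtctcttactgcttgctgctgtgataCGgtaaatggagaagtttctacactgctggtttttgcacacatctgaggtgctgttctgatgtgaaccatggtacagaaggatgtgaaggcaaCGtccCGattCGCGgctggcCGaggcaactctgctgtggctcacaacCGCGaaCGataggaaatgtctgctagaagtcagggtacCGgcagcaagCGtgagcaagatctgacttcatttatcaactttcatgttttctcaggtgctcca

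The next 3 come from CpG-rich regions of similar starting level that were higher in Tet tcKO. They are the edge of the Airn island inside Igf2r (chr17:12742453-12742600, plus strand), the Grb10 island (chr11:12026325-12026624, minus strand) and the H19 start (chr7:142578044-142578240, minus strand). Among all 7 stretches the CpG density ran from 4.67 per 100 bp upstream of Mest to 16.3 per 100 bp at Grb10, and both directions of change occurred at high density.
Airn: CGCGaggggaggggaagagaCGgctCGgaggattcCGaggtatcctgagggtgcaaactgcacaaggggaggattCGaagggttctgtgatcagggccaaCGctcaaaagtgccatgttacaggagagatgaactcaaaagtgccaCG
Grb10: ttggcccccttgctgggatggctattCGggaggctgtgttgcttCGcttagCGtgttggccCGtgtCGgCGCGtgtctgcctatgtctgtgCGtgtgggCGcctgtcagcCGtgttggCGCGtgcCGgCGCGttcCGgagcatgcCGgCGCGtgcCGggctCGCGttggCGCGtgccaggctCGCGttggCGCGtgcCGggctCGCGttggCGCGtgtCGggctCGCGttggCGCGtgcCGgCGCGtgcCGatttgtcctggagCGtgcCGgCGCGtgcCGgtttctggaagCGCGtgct
H19: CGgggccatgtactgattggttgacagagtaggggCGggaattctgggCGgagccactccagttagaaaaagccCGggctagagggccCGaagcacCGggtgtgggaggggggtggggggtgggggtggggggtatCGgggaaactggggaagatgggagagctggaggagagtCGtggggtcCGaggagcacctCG

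Among the CpG islands at which WGBS fell, that of Kcnq1ot1 held the longest region. Kcnq1ot1 is a long noncoding RNA made from the paternal allele that silences its neighbours on chromosome 7, and its promoter island carries 5mC on the maternal allele. The island held 99 CpGs (chr7:143294958-143296694, in the single exon of Kcnq1ot1 and an intron of Kcnq1). A WGBS region of 57 CpGs inside it had a level of 40.3% in Cre- and 32.6% in Tet tcKO, a fall of 7.69 points (difference of group means, 3 libraries each). An overlapping bACE-seq region of 5 CpGs read 1.70% 5hmC in Cre- and 0.528% in Tet tcKO, and no 5hmC value is listed for the rest of the 57 CpGs. The other 10 WGBS regions of the Kcnq1ot1 locus were higher in Tet tcKO, by 9.69 to 39.99 points.

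Plagl1 encodes a zinc finger transcription factor that restrains cell division, and is expressed from the paternal allele through a promoter island methylated on the maternal allele. At that island of 80 CpGs, a region of 50 CpGs centred 37 bp from a start site had a WGBS level of 48.2% in Cre- and 42.0% in Tet tcKO. A bACE-seq region of 5 CpGs inside it had 1.54% 5hmC in Cre- and 0.548% in Tet tcKO. Beyond the island the direction was the opposite. A region of 7 CpGs centred 878 bp downstream of a start site went from 48.3% to 56.8%, and a region of 48 CpGs over the island at the upstream end of the annotated gene from 13.9% to 19.6%.

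Peg10, derived from a retrotransposon and needed for the placenta, starts back to back with Sgce, which encodes epsilon-sarcoglycan, in an island of 139 CpGs. This island held regions of both directions. A region of 13 CpGs over the Sgce starts fell from 55.4% in Cre- to 48.2% in Tet tcKO. A region of 14 CpGs, centred 204 bp downstream of a Peg10 start, rose from 45.2% to 52.3%, and a region of 43 CpGs, centred 1124 bp downstream, from 36.6% to 46.2%. Both bACE-seq regions within the island read below 3% 5hmC in Cre-, at 2.83% and 2.97%, levels that may include unconverted cytosines.

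Mest encodes a protein of the alpha/beta hydrolase fold and is expressed from the paternal allele. Its promoter island of 70 CpGs (chr6:30737592-30738564) overlapped no region of either list. The WGBS regions of lower level lay upstream of it, in an intron of the longer transcript. A region of 17 CpGs fell from 63.7% to 53.9%, and a region of 5 CpGs, centred at position -1679 bp from a main start site, from 68.3% to 57.5%. Neither overlapped a bACE-seq region, and 3 bACE-seq regions in the next island, between them and the start, read 1.93% to 3.84% 5hmC in Cre-. At the upstream start of the longer transcript, a region of 14 CpGs rose from 53.6% to 64.2%.

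**Figure D1:**
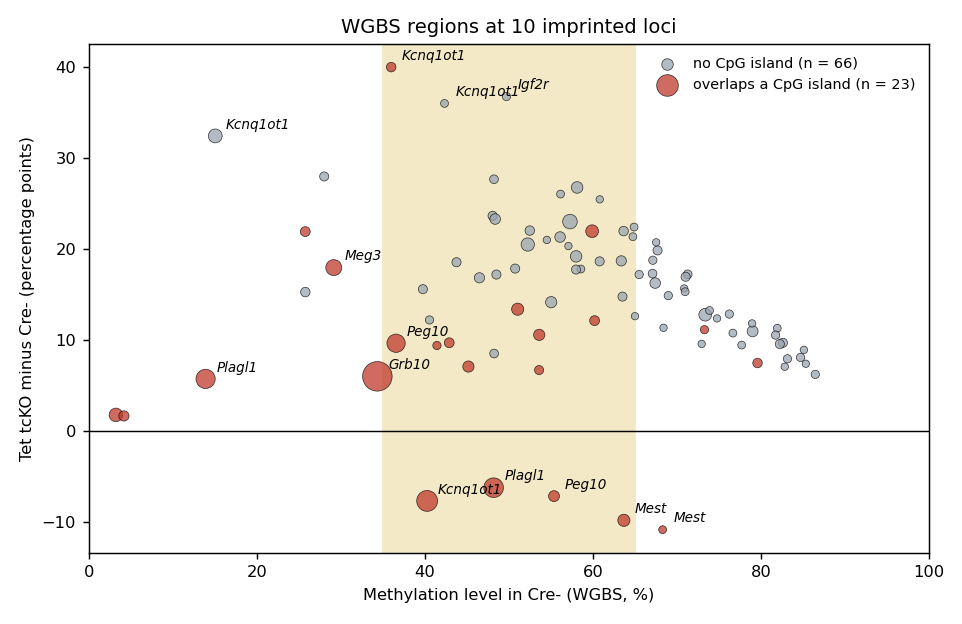
Each point is 1 of the 89 WGBS regions, placed by its Cre- level (x axis, %) and by Tet tcKO minus Cre- (y axis, percentage points), with area growing with its number of CpGs and the band marking 35 to 65%. All 66 regions off CpG islands (grey) lie above 0, and the 5 regions below 0 are among the 23 that overlap a CpG island (red). Of all listed WGBS regions off islands, 99.2% were higher in Tet tcKO.

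At the other loci, the H19 window and the islands at or near start sites overlapped WGBS regions of higher level or none. Which of these islands are methylated in only the egg or the sperm was not determined here. Airn, the noncoding RNA that silences Igf2r on the paternal allele, starts in an island of 94 CpGs inside an Igf2r intron (chr17:12741262-12742677). Its edges were overlapped by a region of 17 CpGs that rose from 51.1% to 64.4% and a region of 8 CpGs that rose from 53.6% to 60.3%. In the middle of the island, 25 CpGs had 2.89% 5hmC in Cre- and 0.648% in Tet tcKO. The promoter of Igf2r itself, which encodes a receptor that clears IGF2, has an island of 115 CpGs, and in this a region of 22 CpGs read 3.23% in Cre- and 5.00% in Tet tcKO.

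Grb10, an adaptor that dampens insulin and IGF receptor signalling, had the member WGBS region with the most CpGs. A stretch of 118 CpGs in an island of 143 (chr11:12025411-12026723) went from 34.4% in Cre- to 40.4% in Tet tcKO, just below the 35% bound used in the counts that follow. The bACE-seq regions on either side of this stretch read 10.2% and 10.0% 5hmC in Cre-, and overlapped only the edges of the island. At the upstream Grb10 promoter, an island of 217 CpGs, a region of 11 CpGs read 4.18% and 5.84%.

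H19 is a noncoding RNA made from the maternal allele, and its upstream control region binds the insulator protein CTCF on that allele. The window from 1.5 to 4.5 kb upstream of its start, which holds the control region, contained 82 CpGs and overlapped no WGBS region. In this window 2 bACE-seq regions covering 7 CpGs had 5.57% and 7.92% 5hmC in Cre-. Nearer the gene, a region of 10 CpGs centred 2 bp from the start rose from 42.9% to 52.6%, and a region of 10 CpGs centred at position -657 bp from 60.2% to 72.3%. Methylation was thus higher in Tet tcKO on the promoter side of the window.

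Meg3, a maternally expressed noncoding RNA of the Dlk1-Dio3 cluster, gained in islands near its starts. A region of 6 CpGs, in an island downstream of the first starts, rose from 41.4% to 50.8%, and a region of 32 CpGs over an inner start from 29.2% to 47.1%. Extending the flank to 20 kb added no CpG-dense region of intermediate level at Meg3 and 1 at H19, in which 6 CpGs rose from 41.4% to 53.3%.

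Peg3, which encodes a zinc finger protein, and Snrpn, which encodes a splicing protein, had no WGBS region at their promoter islands of 73 and 29 CpGs. The Peg3 island overlapped a bACE-seq region of 4 CpGs at 1.66% in Cre- and 0.197% in Tet tcKO, and that of Snrpn a region of 18 CpGs at 4.73% and 0.679%. Snrpn was the only member without any WGBS region. Peg3 had 3, of which a region of 15 CpGs in its coding exon rose most, from 58.0% to 77.2%.

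**Figure D2:**
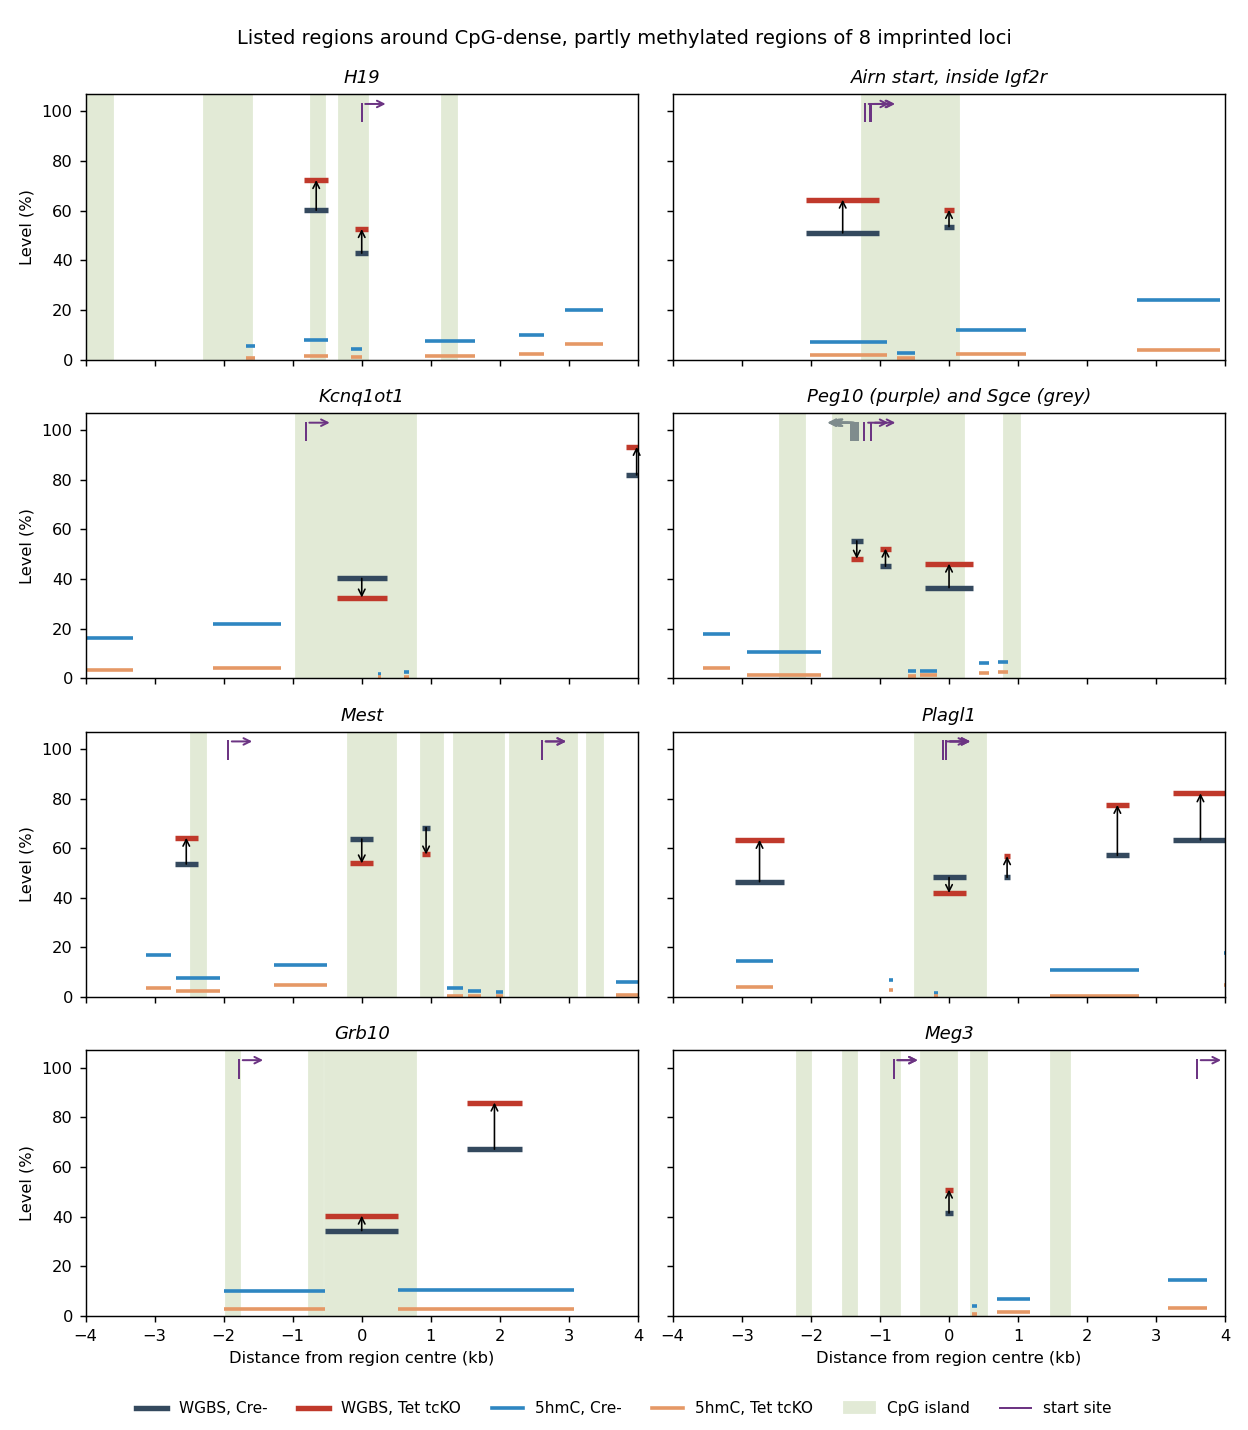
Listed regions within 4 kb of the centre of a CpG-dense, partly methylated WGBS region at 8 loci, drawn in the direction of the control transcript (x axis, kb); bars give the level (y axis, %) in WGBS (dark, Cre-; red, Tet tcKO) and of 5hmC (blue, Cre-; orange, Tet tcKO). Black arrows, which run from Cre- to Tet tcKO, point down in islands (green) of Kcnq1ot1, Plagl1, Peg10 and Mest, where the 5hmC bars of Kcnq1ot1 and Plagl1 lie near the axis, at 1.70% and 1.54% in Cre-.

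Intermediate levels in CpG-rich DNA were counted next. A region was called CpG-dense with an intermediate level if it had at least 3 CpGs per 100 bp and a Cre- level of 35% to 65%. There were 17 such regions at 8 of the loci, 19.1% of the 89, beside 5.33% of all listed WGBS regions. Of the 17, 4 were lower in Tet tcKO, or 23.5%, beside 1.52% of all 10327 such regions in the list. The second region upstream of Mest, at 68.3%, lay just above the bounds. The 13 others were higher in Tet tcKO. That of the Kcnq1ot1 exon, in a small island 26441 bp from its start, went from 35.997% to 75.99% over 9 CpGs, the widest change of any member region. Off islands, 8 CpGs upstream of Kcnq1ot1 went from 48.1% to 71.7%, 5 CpGs of an Igf2r intron from 56.2% to 82.2%, and 15 CpGs and 4 CpGs of Plagl1 introns from 58.1% to 84.9% and from 54.5% to 75.5%. On islands outside the bounds, 10 CpGs of a Grb10 intron went from 25.8% to 47.7%, 6 CpGs upstream of Mest from 73.3% to 84.4%, and 9 CpGs of a Meg3 intron from 79.6% to 87.1%. None of these lay at a control transcript's start.

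The change was smaller on islands than off them. On islands, the 23 member regions had a median WGBS level of 45.2% in Cre- and 52.3% in Tet tcKO, with a median difference of 7.47 points. Off islands the 66 member regions had a median level of 64.8% in Cre- and 83.8% in Tet tcKO, and a median difference of 17.1 points. Over all listed WGBS regions the median differences were 10.7 points on islands and 15.8 points off them. These differences are signed, so losses offset gains. Without regard to sign, the medians at the members were 9.64 points on islands and 17.1 points off them. Over all listed WGBS regions they were 10.8 and 15.9 points. These medians describe listed regions only and were not tested.

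The islands themselves were counted without regard to methylation, as stretches of at least 200 bp with 50% G+C and an observed to expected CpG ratio of 0.6. These limits are wide, and a Meg3 island held only 1 CpG. The islands of the Mest losses had 51.5% and 50.6% G+C. Whether all 5 losses lie on islands under stricter limits was not counted. Of 64 islands at the members, 16 overlapped a WGBS region of higher level (25.0%, beside 18.5% of all islands), 5 a region of lower level (7.81%, beside 0.95%) and 42 a bACE-seq region of lower level (65.6%, beside 56.4%). In neither list were 18. Large islands stood further from the rest of the genome in WGBS. Of 9 member islands with at least 50 CpGs, 7 overlapped a WGBS region and 8 a bACE-seq region, beside 24.1% and 33.1% of all islands of that size. The exceptions in WGBS were the promoter islands of Peg3 and Mest.

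By locus, 9 of the 10 members had a WGBS region of higher level, beside 76.2% of all gene loci, and 4 of the 10 a region of lower level, beside 4.35%. All 10 had a bACE-seq region of lower level, beside 88.8%. Since long loci hold more regions, the share of a locus's CpGs inside listed regions was also taken. Over the 7025 CpGs of the 10 loci, 13.01% lay in WGBS regions of higher level, 2.02% in WGBS regions of lower level and 40.04% in bACE-seq regions of lower level. Over the CpGs of all gene loci these shares were 10.9%, 0.157% and 42.6%. Taken per locus, the median share in WGBS regions of higher level was 13.3% at the members, beside 6.44% over all genes, and that in bACE-seq regions of lower level was 42.1%, beside 36.6%.

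The share in WGBS regions of higher level was 21.7% at Plagl1, 21.5% at Meg3 and 20.6% at Grb10. It was 15.1% at Peg10, 13.4% at Mest, 13.1% at H19 and 10.1% at Kcnq1ot1. At Igf2r it was 6.20%, at Peg3 5.58% and at Snrpn 0%. The share at Plagl1, Meg3 and Grb10 was above that of 90.7%, 90.5% and 89.3% of all genes. WGBS regions of lower level took 8.60% of the CpGs at Kcnq1ot1, 5.59% at Plagl1, 4.26% at Mest and 3.23% at Peg10. Without replicates of these shares the order of neighbouring loci cannot be tested.

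**Figure D3:**
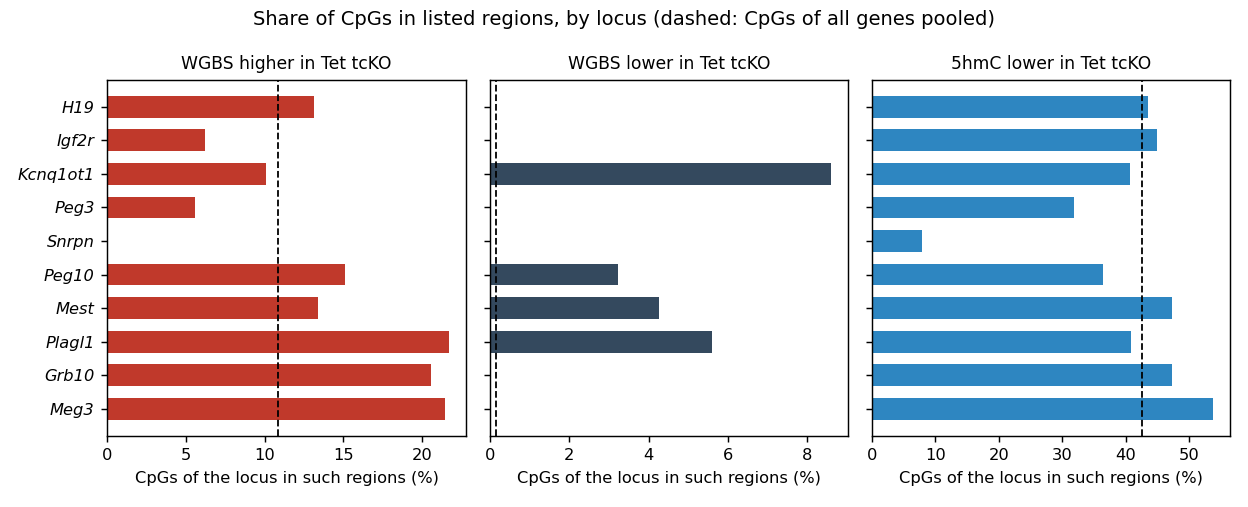
Bars give the share of each locus's CpGs (x axis, %) inside WGBS regions of higher level, WGBS regions of lower level and bACE-seq regions of lower level in Tet tcKO; dashed lines give the share over the CpGs of all genes, 10.9%, 0.157% and 42.6%. Snrpn has no WGBS region and the lowest 5hmC share, 7.89%, and only Kcnq1ot1, Peg10, Mest and Plagl1 have WGBS regions of lower level.

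Away from the islands at start sites, wide gains lay in gene bodies and flanks. In an Igf2r intron 16715 bp downstream of an Airn start, 6 CpGs rose from 49.7% to 86.5%, in a stretch where 5hmC fell from 26.4% to 4.28%. In the Kcnq1ot1 exon 36950 bp from its start, 5 CpGs rose from 42.3% to 78.4%. In the flank beyond its far end, 23 CpGs rose from 15.1% to 47.5%, the largest summed change at that locus. A Plagl1 region of 26 CpGs overlapping a UTR rose from 57.3% to 80.3%, and a Mest intron region of 12 CpGs from 56.1% to 77.4%. Within Meg3, 9 CpGs of an intron rose from 52.5% to 74.5%, and 19 CpGs over an exon, which overlap a small island, from 59.9% to 81.9%. Downstream of H19, 13 CpGs rose from 79.0% to 89.97%. Apart from the last, each of these gains was wider than 18.0 points. That was the largest change in a region that overlapped a control window, at an inner Meg3 start. Control windows, defined below, lie at annotated starts and need not hold a control region.

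Most of the 5hmC in listed regions was lost. Weighted by CpGs, the 238 bACE-seq regions had a mean 5hmC level of 14.8% in Cre- and 3.51% in Tet tcKO. Thus 23.8% of the Cre- level was left, beside 24.0% over all listed bACE-seq regions. The part left may include unconverted cytosines. By locus the share left ran from 13.2% at Snrpn to 29.3% at Meg3. The 5hmC level in Cre- ran from 9.47% at H19 and 9.52% at Snrpn to 20.6% at Kcnq1ot1. In a Grb10 region it fell by 28.0 points, the widest loss at the members.

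The regions with the largest summed loss of 5hmC lay mostly in introns and exons of gene bodies. At Igf2r, 49 CpGs of an intron went from 21.8% to 5.16%, at Kcnq1ot1 39 CpGs of the exon from 21.95% to 3.80%, and at Grb10 38 CpGs of an intron from 24.5% to 6.83%. At Mest 37 CpGs went from 18.5% to 4.29%, at Meg3 45 CpGs from 18.1% to 7.51%, and at Plagl1 28 CpGs from 13.8% to 2.42%. Summed losses were smaller at Peg3, where 33 CpGs went from 10.6% to 2.91%, Peg10, where 20 CpGs went from 18.97% to 4.60%, H19, where 25 CpGs went from 7.52% to 1.48%, and Snrpn, where 6 CpGs went from 14.4% to 1.18%.

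5hmC was low where CpGs were dense. The median Cre- level was 6.68% in the 43 member regions with at least 3 CpGs per 100 bp and 15.5% in the 195 sparser ones, beside 8.91% and 14.8% in all listed bACE-seq regions. In Tet tcKO these medians were 1.49% and 3.44% at the members. In the 23 regions that overlapped a control window, taken as 1 kb on each side of the start sites or the H19 window, the median was 6.97% in Cre- and 1.25% in Tet tcKO. In the 215 others it was 14.5% and 3.19%. The windows were placed at every annotated start site of Airn and of the members other than H19 and Igf2r. They therefore need not hold a control region, and the Grb10 island of 143 CpGs lay outside them.

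**Figure D4:**
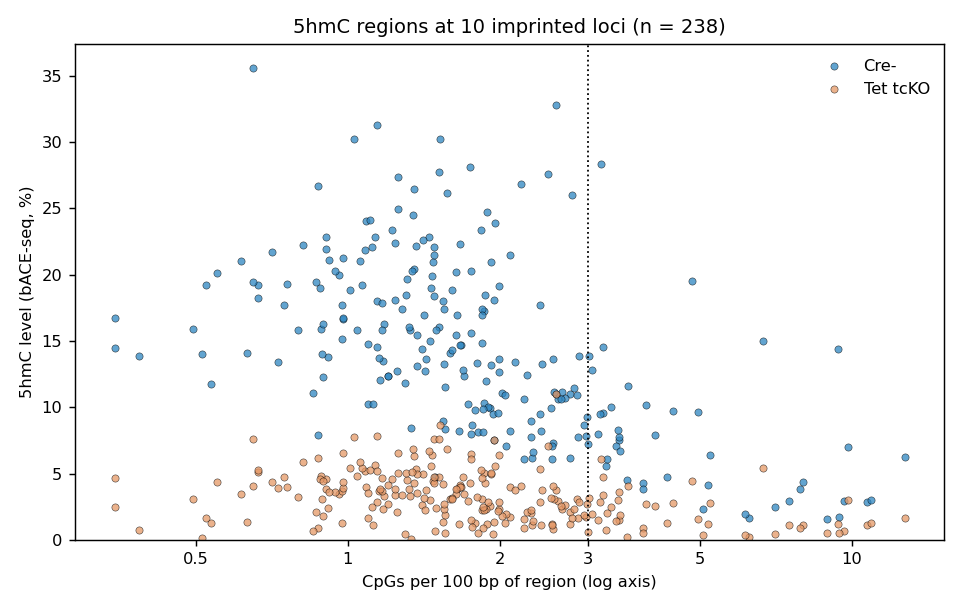
5hmC level (y axis, %) of the 238 member bACE-seq regions in Cre- (blue) and Tet tcKO (orange) against CpGs per 100 bp (log x axis), with the dotted line at 3 per 100 bp. The Cre- median is 15.5% left of the line and 6.68% right of it. Each region has a lower level in Tet tcKO, as do 99.96% of all listed bACE-seq regions.

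Of the 84 WGBS regions of higher level, 71 overlapped a bACE-seq region, and of the 5 of lower level 2 did, those of Kcnq1ot1 and Plagl1. Together that was 82.0% of the member WGBS regions, beside 80.4% of all listed WGBS regions. Of all WGBS regions of lower level, 29.8% overlapped a bACE-seq region. The bACE-seq regions at Kcnq1ot1 and Plagl1 each covered 5 CpGs. At the members, the 5hmC level over most CpGs of the WGBS regions of lower level is therefore not known from the lists.

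The sequence was searched for TGCCGC, the hexamer that ZFP57 binds when methylated, and for GGNGGCAG, the core of the CTCF motif, on both strands of 300 bp around each region's centre. The hexamer was in 6 of the 17 CpG-dense member regions of intermediate level (35.3%), beside 9.15% of all 10327 such regions and 5.43% of all WGBS regions. The hexamer itself holds a CpG, and the 17 were denser, at a median of 5.04 CpGs per 100 bp beside 3.65 in the 10327. The share of this difference owed to density was not tested. The CTCF core was in 3 of the 17 (17.6%), beside 12.9% and 10.5%. Of the printed stretches, that of Kcnq1ot1 holds the hexamer 3 times and those of Plagl1 and Peg10 hold it 1 time each. Those of Mest, Airn, Grb10 and H19 do not hold it. These counts depend on the part printed. The whole islands hold it 3 times at Kcnq1ot1, 6 at Plagl1, 3 at Peg10, 8 at Airn and 4 at Grb10. The islands at the H19 start and around the printed Mest stretch hold it 0 times. A CTCF match can also contain the hexamer on the other strand, and such a match counted for both. A match is a run of letters and does not show that either protein was bound.

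A further 54 imprinted genes were described in the same way. WGBS regions of higher level were at 51 of them, beside 76.2% of all gene loci. Regions of lower level were at 18, beside 4.35%, some shared by neighbouring genes. Their loci were longer, with a median of 52834.5 bp beside 22812 bp over all genes. Of their CpGs, 11.2% lay in WGBS regions of higher level, beside 10.9% over all gene loci. For regions of lower level the shares were 0.764% and 0.157%. They held 504 WGBS regions that no member shared, of which 489 were higher in Tet tcKO and 15 lower, or 2.98%, beside 1.38% of all WGBS regions. Of their 57 CpG-dense regions of intermediate level, 46 were higher and 11 lower, beside 1.52% lower among all such regions. The share of CpGs in WGBS regions of higher level was greatest at Peg13 (46.7%), Dlk1 (38.3%) and Nap1l5 (34.5%), and Mkrn3, Klf14 and Dcn had no WGBS region.

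CpG islands of several other imprinted genes also had regions of lower level. In the Gnas cluster, a region of 76 CpGs went from 51.2% to 42.3% while its neighbour of 106 CpGs went from 37.0% to 44.4%, and a region of 31 CpGs, also upstream of Nespas, from 53.1% to 46.5%. At Zrsr1, which lies inside Commd1, a region of 36 CpGs fell from 52.4% to 45.5%. Nnat, inside an intron of Blcap, fell from 53.6% to 44.7%, Peg13, inside Trappc9, from 47.3% to 41.1%, and Magel2 from 35.8% to 29.1%. At Ndn, 2 regions fell, from 38.6% to 30.5% and from 42.4% to 35.3%, and another rose from 55.1% to 64.2%.

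Other losses were upstream of Phlda2, from 57.1% to 41.8%, and in introns of Slc38a4, from 64.0% to 54.4%, and Impact, from 53.3% to 46.9%. Those of Slc38a4 and Impact also overlapped CpG islands. An Impact region of 15 CpGs on an island rose from 51.1% to 60.2%. Losses from high levels were in Slc22a3, from 94.7% to 82.9%, and Snhg14, from 76.9% to 65.7%. Sfmbt2 also fell from a high level, on an island, from 95.6% to 91.0%. A further Impact region, off islands, fell from 97.6% to 89.4%. The losses counted at Kcnq1 and Sgce are the member regions of Kcnq1ot1 and Peg10.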

How the data were processed

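Per the labels and methods, the authors aligned reads to mm10 with Bismark 0.18.2 and Bowtie2, took CpG calls with MethylDackel 0.6.1, and called regions with DSS (p threshold 0.01, at least 3 CpGs and 50 bp), which smooths levels over neighbouring CpGs. The deposited lists give each region's mean level per group as a fraction, printed here as a percent, and its number of CpGs. Which mean is which group was read from the order in the lists' names; with it, 592697 of 592906 bACE-seq regions had less 5hmC in Tet tcKO. Columns with the authors' own differences and statistics were not used. Python 3.11.15 with numpy 2.4.6 and pandas 2.3.3 was used for overlaps (at least 1 bp) with GENCODE M21 genes. CpGs and CpG islands were found in the GRCm38 sequence, on which 100% of listed starts and ends fell on CpGs. The overlap code was tested on simulated data.

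The members and lists were chosen with earlier results of these data known. All members were named, with the region of largest summed change (CpGs times difference) in each list and the WGBS regions on islands or control windows or CpG-dense at an intermediate level; bACE-seq regions there were given as examples and medians. Of further imprinted genes, those with the 3 highest and 3 lowest shares and those with a loss were named. The lists carry no replicate values, so no p-value, error or depth is given, and alternatives changed the flank, region size, difference, island and density limits.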

Additional observations from a re-analysis of the deposited data

How the results depend on the processing

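Of 59 values recomputed for 10 results, 37 were called the same and 22 moved. Counts were called the same within a factor of 1.5, so that 124 WGBS regions with 20 kb of flank counted as the same as 89. Shares were held to a narrower interval, 14.2% to 15.9% for WGBS and 38.9% to 41.2% for 5hmC. This was a 95% binomial interval over CpGs, which treats neighbouring CpGs as independent. It served only to call a share the same or moved, and does not measure the spread among libraries. The share of member CpGs in any WGBS region was 15.0%, and 16.04% with no flank and 13.9% with 20 kb of flank. With regions of at least 10 CpGs there were 30 WGBS and 108 bACE-seq regions, the shares of CpGs were 9.85% and 29.2%, and 11 further genes had a WGBS loss. With a difference of at least 10 points, 1 WGBS loss, 133 bACE-seq regions and 9 islands with a WGBS region were left of 5, 238 and 20, the shares were 8.09% and 21.9%, and 3 further genes had a loss. At 20 points, 23 WGBS regions, 0 losses at members, 16 bACE-seq regions, shares of 3.03% and 2.89% and 0 further genes with a loss were left. The WGBS losses at the members are therefore small in points. Of strict islands (500 bp, 55% G+C, ratio 0.65) 7 of 10 overlapped a WGBS region, and 8 islands had 50% of their length covered. At 5 CpGs per 100 bp, 9 CpG-dense regions of intermediate level were left of 17. No paired analysis was possible because the lists hold group means only. For the same reason, leaving out a library could not be fitted.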
